A study of Musca domestica with 4 samples.

Results

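The transcriptomes of 2 laboratory strains of the house fly, Musca domestica, were compared: aabys and CS, 2 of the 4 RNA-Seq libraries of the series, taken by their strain labels. The aabys library came from an insecticide-susceptible strain that carries recessive visible markers (ali-curve, aristapedia, brown body, yellow eyes and snipped wings), a different one on each autosome. The CS library came from a wild-type susceptible strain kept in the laboratory for decades. Each library was made from a single pool of whole adult females 3 days old, so there was 1 sample per strain, no replicate check and no test of the difference between the strains. The other 2 libraries, called ALHF and ALHF2 in the labels, both came from ALHF, a multi-resistant strain collected on a poultry farm and selected further with permethrin. They served here only as a gauge of how far a pair of samples of the same strain can lie apart. Per the study's methods, the ALHF replicates were independent samples of different flies, extracted on different days. Nothing in the labels says that aabys and CS were collected or prepared together, and the strain cannot be told apart from the pool or the library.

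The features were 6159 predicted coding regions of a transcript assembly made from ALHF flies, called genes below and written with the identifier they carry in the table. Their level was an estimated number of sequenced fragments, a count, printed below as deposited. The 2 strain columns summed to 15085758 counts in aabys and 12440784 in CS, with 10112769 in ALHF and 5523826 in ALHF2, and 5995 genes were above 0 in each of aabys and CS. The counts of ALHF and ALHF2 beside a gene are to be read against these totals. Counts were divided by scale factors of 1.03 for aabys and 0.968 for CS, and each gene is described by the log2 ratio of its scaled counts, aabys over CS, where 1 is a 2-fold difference. Ratios are given for the 5974 genes whose mean scaled count over both strains reached 10. Intervals in square brackets are exact 95% intervals that cover counting error only, and neither the differences between flies nor those between library preparations are in them.

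A whole female fly is a mixture of organs. Flight and leg muscle fill much of the thorax, the eye expresses opsins and their signalling proteins, the midgut secretes trypsins and amylases, the fat body releases lysozymes, serpins and thioester proteins into the haemolymph, the epidermis makes cuticle, and the ovary is the main site of DNA synthesis and of stored maternal transcripts. In such bulk samples fewer cells of a type and less RNA per cell cannot be told apart. Functions are given from the protein families and closest Drosophila proteins in the study's annotation, and a Drosophila name below means the most similar Drosophila protein, whose role is known in that species.

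Most listed genes for muscle, trypsin-like proteases, cuticle, thioester proteins and serpins were at least 2-fold higher in aabys. The listed genes of DNA replication were higher in CS. Over all genes, 1441 were at least 2-fold higher in aabys, 24.1% of the 5974, and 623, or 10.4%, were at least 2-fold higher in CS. At 4-fold the numbers were 448 in aabys, or 7.5%, and 79 in CS, or 1.32%. Within the ALHF pair, a 2-fold excess in ALHF was seen for 711 of 6038 genes, or 11.8%, and in ALHF2 for 485, or 8.03%. The share of 2-fold differences that favoured aabys was 69.8%, and it moved to 55.4% when libraries were scaled by their column sums and to 81.8% when the scaling rested on genes with a mean of at least 1000.

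The standard deviation of the log2 ratio over genes was 1.35 for aabys over CS and 1.11 for ALHF over ALHF2, and the interquartile range was 1.57 for aabys over CS and 0.959 for ALHF over ALHF2. The 95th percentile of the absolute ratio within the ALHF pair, taken in deciles of abundance, lay between 1.42 and 3.53. Read at each gene's own abundance, this limit was passed by 552 genes higher in aabys, or 9.24% of those described, and by 102 genes higher in CS, or 1.71%. By its construction the ALHF pair itself has 5% of its genes past the limit, in either direction, and 10.9% of genes passed it between the strains. A single pair of samples sets this gauge, so it is a yardstick and not an error estimate for aabys or CS.

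Muscle genes were higher in aabys in nearly every case. The list of sarcomere genes (myosin, paramyosin, tropomyosins, troponin I and the Z-disc and giant elastic proteins of the contractile unit) held 19 members, and all 19 passed the abundance filter. Of them, 17 were at least 2-fold higher in aabys, none was 2-fold higher in CS, and 11 passed the ALHF limit. The median log2 ratio was 1.72, against -0.00 over all genes described. Muscle myosin heavy chain, the motor of the thick filament (Mhc, ALHF_02955.g1774), had 55319 counts in aabys and 14654 in CS, with 541943 in ALHF and 203257 in ALHF2. Its log2 ratio was 1.82 [1.80 to 1.85]. The aabys value was well above that of CS, and both susceptible strains lay far below both ALHF samples. A second myosin contig (ALHF_02956.g1775), annotated with the same Drosophila protein, had 27002 counts in aabys and 14957 in CS, a log2 ratio of 0.76, under 2-fold.

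Paramyosin, which forms the core of invertebrate thick filaments (Prm, ALHF_02771.g1633), had 24388 counts in aabys and 8809 in CS, with 66340 in ALHF and 38583 in ALHF2, a log2 ratio of 1.38 [1.34 to 1.41]. Tropomyosin 1, which lies along the actin filament (Tm1, ALHF_02519.g1469), had 13756 counts in aabys and 3966 in CS, with 53418 in ALHF and 34459 in ALHF2, a log2 ratio of 1.70 [1.65 to 1.75]. The myosin light chain Mlc1 (ALHF_00522.g289) had 7766 counts in aabys and 1904 in CS, a log2 ratio of 1.94 [1.86 to 2.01], and it was the most abundant list member per length in aabys, at 1114 FPKM, that is its count divided by the kilobases of coding length and scaled to the library total. Bent, a giant protein of the kind that links filaments (bt, ALHF_02477.g1440), had 10921 counts in aabys and 3512 in CS, a log2 ratio of 1.54 [1.49 to 1.60]. As a share of the library, CS was lowest, aabys came next and both ALHF samples were highest in each of these genes.

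The highest ratio in the list belonged to a contig of troponin I, the inhibitory subunit of the calcium switch (wupA, ALHF_01625.g903), with 1060 counts in aabys and 55 in CS, a log2 ratio of 4.18 [3.78 to 4.59]. The other wupA contigs lay between 1.70 and 3.91, and the scarcest of them had 48 counts in aabys and 0 in CS, so that its ratio of 3.91 is a bound set by the floor of 3 counts. The lowest ratio belonged to a contig of Strn-Mlck, a myosin light chain kinase (ALHF_00306.g151), with 3558 counts in aabys and 3892 in CS, a log2 ratio of -0.22. The adjoining Strn-Mlck contig (ALHF_00307.g152) had 378 counts in aabys and 144 in CS, a log2 ratio of 1.30. Several contigs thus stand for the same gene, and their counts depend on how reads were shared among them. When counts were summed over contigs with the same Drosophila name, 9 of 10 muscle genes were at least 2-fold higher in aabys. Together the 19 contigs took 1.09% of the counts in aabys and 0.468% in CS, with 10.6% in ALHF and 8.13% in ALHF2. The median ratio of the same genes within the ALHF pair was 0.10, and none differed 2-fold there.

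Germline genes did not share this direction. Of 7 contigs of egg polarity and germline genes known from Drosophila, none was 2-fold higher in aabys and 1 was 2-fold higher in CS. Their median log2 ratio was -0.30. When counts were summed over contigs with the same Drosophila name, none of the 5 genes was 2-fold higher in either strain. Their summed level was 0.211% of the counts in aabys and 0.319% in CS, with 0.0534% in ALHF and 0.0659% in ALHF2, and no member was at 0 in any library. Exuperantia, which localises maternal mRNA in the oocyte (exu, ALHF_01974.g1113), had 15239 counts in aabys and 20553 in CS, a log2 ratio of -0.52 [-0.55 to -0.49]. Gurken, the oocyte's signal for egg polarity (grk, ALHF_01527.g838), had 626 counts in aabys and 396 in CS, a log2 ratio of 0.57, the highest of the list. A contig of tudor, a germ plasm protein (tud, ALHF_02007.g1136), had 1175 counts in aabys and 2239 in CS, a log2 ratio of -1.02, the lowest. The part of ovary content in the muscle and other ratios was not tested.

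**Figure D1:**
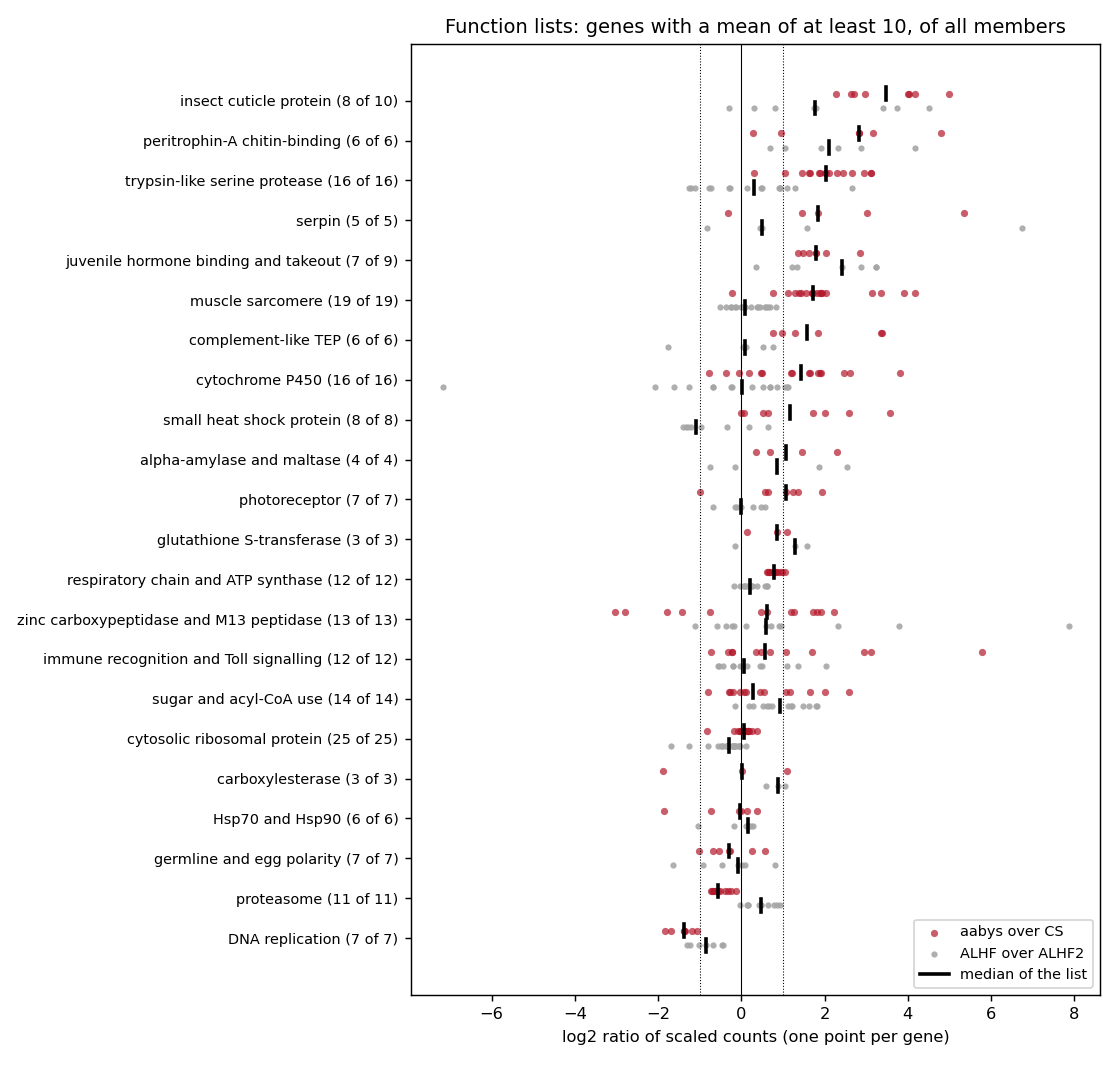
Log2 ratios of scaled counts for the members of 22 function lists, ordered by the median of aabys over CS, with aabys over CS above and ALHF over ALHF2 below in each row; the horizontal axis is log2, each point is a gene with a mean count of at least 10 in the strain pair, black ticks are medians and dotted lines mark 2-fold. Cuticle protein genes (median 3.49) stand at the top and DNA replication genes (median -1.37) at the bottom, and the muscle genes of the ALHF pair cluster around 0.10.

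Digestive enzymes followed. All 16 trypsin-like serine proteases were measured, 15 of 16 were at least 2-fold higher in aabys, none in CS, and 12 passed the ALHF limit. Their median log2 ratio was 2.03, against 0.31 within the ALHF pair. Alpha-trypsin (alphaTry, ALHF_02019.g1145), a secreted gut protease in Drosophila, was the most abundant, at 9934 FPKM in aabys and 3116 in CS. It had 115991 counts in aabys and 30001 in CS, with 22788 in ALHF and 22831 in ALHF2, a log2 ratio of 1.86 [1.84 to 1.88]. The protease closest to CG7542 (ALHF_02287.g1327) had 47995 counts in aabys and 14531 in CS, with 14458 in ALHF and 18295 in ALHF2, a log2 ratio of 1.63. The gene closest to CG11912 (ALHF_00454.g240) had 34577 counts in aabys and 3745 in CS, with 2421 in ALHF and 3421 in ALHF2, a log2 ratio of 3.11 [3.07 to 3.16]. The genes closest to alphaTry and CG11912 took their largest share of counts in aabys, whereas the share of the CG7542 gene was slightly larger in ALHF2 than in aabys.

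Not every member of that family is a digestive enzyme. The highest ratio in the list was that of grass (ALHF_00067.g40), which in Drosophila acts in the cascade that activates Toll, with 232 counts in aabys and 25 in CS, a log2 ratio of 3.12 [2.52 to 3.78]. Easter (ea, ALHF_01743.g977), which cleaves the Toll ligand in the fly embryo, had 1078 counts in aabys and 132 in CS, a log2 ratio of 2.94. The lowest ratio was that of the gene closest to CG30371 (ALHF_02124.g1213), with 275 counts in aabys and 207 in CS, a log2 ratio of 0.32 [0.05 to 0.58].

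Amylase, which splits starch (Amy-p, ALHF_00499.g273), had 64759 counts in aabys and 12328 in CS, with 48403 in ALHF and 31715 in ALHF2, a log2 ratio of 2.30 [2.27 to 2.33]. Of the 4 amylase and maltase genes, 2 were at least 2-fold higher in aabys and the median was 1.07. The maltases Mal-A1 (ALHF_02580.g1510), with 7550 counts in aabys and 4373 in CS, and Mal-A2 (ALHF_01186.g650), with 936 in aabys and 688 in CS, lay within 2-fold at 0.70 and 0.35. The remaining member (ALHF_02452.g1426), which has an amylase domain and no Drosophila name, was at 1.45.

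The metallopeptidases were split. Of 13 genes for zinc carboxypeptidases and M13 peptidases, 6 were at least 2-fold higher in aabys and 4 at least 2-fold higher in CS, with a median of 0.61. The carboxypeptidase closest to CG8560 (ALHF_01268.g692) had 5646 counts in aabys and 1124 in CS, a log2 ratio of 2.24. An M13 peptidase contig closest to CG9507 (ALHF_02207.g1267) had 18 counts in aabys and 139 in CS, a log2 ratio of -3.04 [-3.84 to -2.33], but 1200 counts in ALHF and 0 in ALHF2. The contigs that carried the name CG9507 had ratios of -3.04, -2.80, -0.74 and 1.26. These contigs disagreed among themselves in both pairs of libraries.

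**Figure D2:**
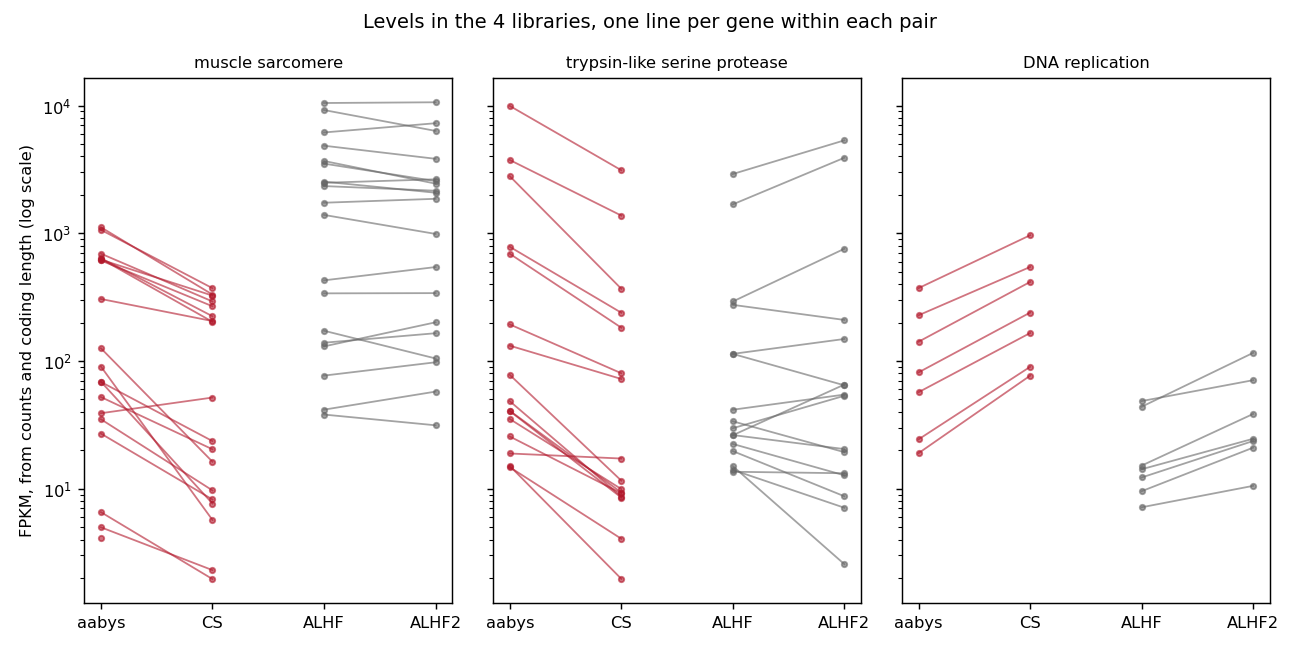
Levels of the muscle sarcomere, trypsin-like protease and DNA replication genes in the 4 libraries, in FPKM on a log axis; each line joins the values of a gene within a pair of libraries, aabys to CS in red and ALHF to ALHF2 in grey, and a value of 0 is not drawn. Lines fall from aabys to CS for 15 of 16 proteases by at least 2-fold after scaling, while all 7 replication genes are lower in aabys than in CS.

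Genes of the cuticle had the largest list median, at low counts. Of 10 cuticle protein genes, 8 passed the abundance filter, and all 8 were at least 2-fold higher in aabys, 7 of them past the ALHF limit, with a median log2 ratio of 3.49. The filter favours genes that are high in either strain, so this count is a description of what was measurable. Most of the 8 had mean scaled counts in the lowest decile of genes, 10 to 103. In that decile 50.7% of all genes were at least 2-fold higher in aabys, with a median log2 ratio of 1.02. The other 2 had 4 counts in aabys and 1 in CS (Lcp65Ad, ALHF_02709.g1584), and 3 in aabys and 1 in CS (Cpr49Ah, ALHF_03064.g1861). The cuticle gene closest to CG8927 (ALHF_00591.g332) had 204 counts in aabys and 6 in CS, with 1845 in ALHF and 103 in ALHF2, a log2 ratio of 4.99 [3.85 to 6.46]. The most abundant member (ALHF_00953.g528) had 1070 counts in aabys and 127 in CS, with 468 in ALHF and 79 in ALHF2, a log2 ratio of 2.98. The lowest measured ratio was that of Cpr57A (ALHF_02273.g1321), with 1056 counts in aabys and 206 in CS, at 2.27.

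The chitin-binding proteins with peritrophin-A domains, which line gut, trachea and cuticle, went the same way: 4 of 6 were at least 2-fold higher in aabys, none in CS, with a median of 2.83. Obst-B (ALHF_02754.g1623) had 119 counts in aabys and 4 in CS, with 854 in ALHF and 134 in ALHF2, a log2 ratio of 4.80 [3.41 to 6.70]. Gasp, a component of the tracheal lining in Drosophila (ALHF_00899.g498), had 443 counts in aabys and 46 in CS, with 4981 in ALHF and 397 in ALHF2, a log2 ratio of 3.18. The lowest, closest to CG14880 (ALHF_01581.g873), had 279 counts in aabys and 215 in CS, a log2 ratio of 0.28. Both lists also differed within the ALHF strain: the cuticle genes had a median of 1.77 and the peritrophin genes 2.12 for ALHF over ALHF2, and 5 genes of each list had at least 2 times the scaled count in ALHF that they had in ALHF2. Most of these genes thus had ratios above 0 in both pairs, but the cuticle median was larger between the strains, at 3.49. Cpr57A, at 2.27 between the strains, was at -0.30 within the ALHF pair.

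The juvenile hormone binding and takeout family, secreted carriers of lipophilic ligands, had a median of 1.80 between the strains and 2.42 within the ALHF pair. All 7 measured genes of 9 were at least 2-fold higher in aabys, but only 1 passed the ALHF limit. The gene closest to CG8997 (ALHF_02643.g1545) had 568 counts in aabys and 74 in CS, a log2 ratio of 2.85, and the most abundant, closest to CG14661 (ALHF_01249.g683), had 1629 in aabys and 595 in CS, a log2 ratio of 1.36, which was the lowest. Another pair of contigs (ALHF_02968.g1784 and ALHF_02969.g1785) held identical values in all 4 libraries, 37 in aabys and 10 in CS, and both members that missed the filter were at 0 in aabys and in CS.

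Immune and haemolymph genes were led by a lysozyme. This gene, closest to LysP (ALHF_02362.g1373), belongs to the enzymes that cut bacterial cell walls and in flies also serve digestion, and it had 49427 counts in aabys and 840 in CS, with 10176 in ALHF and 4351 in ALHF2. Its log2 ratio was 5.79 [5.69 to 5.89], a 55.2-fold difference, against 0.46 for ALHF over ALHF2. At 8737 FPKM in aabys, against 180 in CS, it was among the 5 most abundant annotated genes of aabys. The CS library stood apart as the lowest of the 4.

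The thioester-containing proteins, complement-like opsonins of insect haemolymph, had a median of 1.57, with 4 of 6 at least 2-fold higher in aabys and none in CS. The most abundant TepII contig (ALHF_01914.g1081) had 24779 counts in aabys and 2256 in CS, with 1795 in ALHF and 1012 in ALHF2, a log2 ratio of 3.36 [3.30 to 3.43]. The highest ratio, 3.39, was that of a TepII contig (ALHF_01362.g744) with 3632 counts in aabys and 326 in CS. The lowest, 0.75, was that of a further TepII contig (ALHF_02554.g1494) with 465 in aabys and 259 in CS. Of the 6 contigs 5 bear the name TepII, so they are not separate Drosophila counterparts.

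Among 5 serpins, inhibitors that restrain serine protease cascades, 4 were at least 2-fold higher in aabys. Spn28D (ALHF_02333.g1353) had 2514 counts in aabys and 291 in CS, with 234 in ALHF and 46 in ALHF2, a log2 ratio of 3.02 [2.84 to 3.20]. Spn43Aa (ALHF_02807.g1664) had 392 counts in aabys and 9 in CS, a log2 ratio of 5.35 [4.41 to 6.49], but 7066 in ALHF and 39 in ALHF2, so that the ALHF samples differed more than the strains did. Spn27A (ALHF_02165.g1239), which holds back Toll activation and melanisation in Drosophila, had 2425 counts in aabys and 2850 in CS, a log2 ratio of -0.33.

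A pair of intracellular Toll components lay below 0. Myd88 (ALHF_02939.g1761), the adaptor of the Toll receptor, had 1358 counts in aabys and 2113 in CS, a log2 ratio of -0.73 [-0.83 to -0.63], the lowest of the immune list. Cactus, the inhibitor that holds the Toll transcription factors in the cytoplasm (cact, ALHF_00411.g216), had 2364 counts in aabys and 2584 in CS, a log2 ratio of -0.22, and a second cact gene model (ALHF_00412.g217) held the same values. The recognition protein PGRP-SA (ALHF_01081.g597), a sensor of bacterial peptidoglycan upstream of Toll, had 432 counts in aabys and 125 in CS, a log2 ratio of 1.70. The list of microbe sensing and Toll signalling held 12 entries, the LysP lysozyme among them, with a median of 0.58. Of them 5 were at least 2-fold higher in aabys and none in CS, where 24.1% and 10.4% of all genes were. Summed by Drosophila name, 4 of 10 were at least 2-fold higher in aabys.

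Cytochrome P450s, haem enzymes that oxidise insecticides, hormones and fatty acids, were described where they fell among the first 1689 genes of the table, which all the function lists cover, and P450s elsewhere in the table are not counted. Of these 16 P450 genes, all 16 were measured, 10 were at least 2-fold higher in aabys, none in CS, and 7 passed the ALHF limit, with a median log2 ratio of 1.43 and a median of 0.02 within the ALHF pair. The highest was Cyp28a5 (ALHF_02882.g1719), with 1443 counts in aabys and 97 in CS, and 351 in ALHF and 99 in ALHF2, a log2 ratio of 3.80 [3.51 to 4.11]. The most abundant, closest to Cyp313a4 (ALHF_02021.g1146), had 12140 counts in aabys and 1868 in CS, with 2483 in ALHF and 676 in ALHF2, a log2 ratio of 2.61 [2.54 to 2.68]. Cyp12c1 (ALHF_00385.g201) had 11300 counts in aabys and 4603 in CS, with 4520 in ALHF and 8203 in ALHF2, a log2 ratio of 1.20. Cyp28a5 and the Cyp313a4 contig took their largest share of counts in aabys among the 4 libraries.

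The P450s without a 2-fold difference included members of the Cyp6a subfamily. The contigs closest to Cyp6a21 had 586 counts in aabys and 567 in CS (ALHF_03006.g1816, log2 ratio -0.04) and 334 in aabys and 223 in CS (ALHF_02791.g1651, 0.49), and the contig closest to Cyp6a9 (ALHF_01822.g1025) had 129 in aabys and 157 in CS (-0.38). Cyp6a2 (ALHF_01456.g797), with 2549 counts in aabys and 669 in CS, was at 1.84. The lowest ratio was that of Cyp4p3 (ALHF_01071.g591), with 146 counts in aabys and 233 in CS, at -0.77 [-1.08 to -0.46]. Outside the list, a P450 (ALHF_05265.g3608) had 14 counts in aabys and 329 in CS, a log2 ratio of -4.65 [-5.53 to -3.88]. Its counts were 2144 in ALHF and 598 in ALHF2. Its annotation was taken from the study's own lists of genes that differ between ALHF and both susceptible strains. The study also measured this P450 by qRT-PCR, far higher in ALHF than in aabys, and CS was not measured there. It is the only P450 among the 12 annotated genes lowest in aabys.

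Among the same first 1689 genes the lists held few members of the 2 other detoxification families. The 3 glutathione S-transferases, which join glutathione to electrophiles, were at 0.13, 0.86 and 1.10. The 3 carboxylesterases were at 1.09 (alpha-Est8, ALHF_03013.g1823, with 897 counts in aabys and 394 in CS), 0.02 (clt, ALHF_00625.g347, with 523 in aabys and 485 in CS) and -1.88 (closest to CG4757, ALHF_00771.g422, with 11 in aabys and 38 in CS). The direction of their median, 0.02, changed sign with the scaling.

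Photoreceptor genes were higher in aabys for the most part, but none of the 7 passed the ALHF limit. Of them 4 were at least 2-fold higher in aabys, none reached 2-fold in CS at the scaling used, and the median log2 ratio was 1.07. The major opsin (ninaE, ALHF_02706.g1581), the light-sensing protein of the outer photoreceptors, had 18497 counts in aabys and 11723 in CS, with 18922 in ALHF and 12444 in ALHF2, a log2 ratio of 0.57 [0.53 to 0.60]. The light-activated channel (trp, ALHF_01119.g620) had 5678 counts in aabys and 2073 in CS, a log2 ratio of 1.36, and inaF-D (ALHF_00756.g413) had 74 in aabys and 18 in CS, a log2 ratio of 1.95, the highest. The diacylglycerol kinase rdgA (ALHF_00083.g50) went the other way, with 267 counts in aabys and 500 in CS, a log2 ratio whose interval ran from -1.22 to -0.78, just short of 2-fold. The ratio thus differed among genes that share a tissue.

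Genes of mitochondrial energy supply differed by similar, modest ratios. All 12 genes of the respiratory chain and ATP synthase lay above 0, between 0.62 and 1.04, with a median of 0.78, and 1 reached 2-fold in aabys. The catalytic beta subunit of ATP synthase (ATPsyn-beta, ALHF_01778.g998) had 61184 counts in aabys and 33560 in CS, with 139134 in ALHF and 53523 in ALHF2, a log2 ratio of 0.77. The highest was ATPsyn-d (ALHF_00408.g213), with 10363 counts in aabys and 4725 in CS, at 1.04, and the lowest was ND23 (ALHF_02233.g1288), a subunit of complex I, with 3762 in aabys and 2299 in CS, at 0.62. None of the 12 passed the ALHF limit. Their narrow range contrasts with the muscle list, which spanned -0.22 to 4.18.

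DNA replication was the only one of the 22 lists in which a majority of the genes was at least 2-fold higher in CS. All 7 genes of the list were, at log2 ratios between -1.83 and -1.07 with a median of -1.37, where 10.4% of all genes reached that fold. The replicative helicase subunits Mcm6 (ALHF_01244.g680), with 3038 counts in aabys and 7361 in CS, and dpa, the Mcm4 of Drosophila (ALHF_02131.g1218), with 5082 in aabys and 12310 in CS, were both at -1.37. The sliding clamp PCNA (mus209, ALHF_00768.g420) had 2694 counts in aabys and 5306 in CS, with 347 in ALHF and 501 in ALHF2, a log2 ratio of -1.07, the highest of the list. The small subunit of ribonucleotide reductase, which makes DNA precursors (RnrS, ALHF_01191.g652), had 6452 counts in aabys and 13798 in CS, with 564 in ALHF and 449 in ALHF2, a log2 ratio of -1.19. It was the most abundant per length, at 372 FPKM in aabys and 965 in CS.

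The lowest ratio of the list was that of the histone chaperone asf1 (ALHF_00740.g402), with 202 counts in aabys and 673 in CS, at -1.83 [-2.06 to -1.60]. A primase subunit (DNApol-alpha50, ALHF_00778.g425) had 365 counts in aabys and 1112 in CS, at -1.70, and RPA2 (ALHF_00252.g119), a subunit of the protein that coats single-stranded DNA, had 632 in aabys and 1514 in CS, at -1.35. Only asf1 passed the ALHF limit. The same genes were also lower in ALHF than in ALHF2, with a median of -0.84 and 3 of 7 at least 2-fold apart. The list took 0.122% of the counts in aabys and 0.338% in CS, but 0.0185% in ALHF and 0.0370% in ALHF2. Both laboratory strains were therefore above both ALHF samples, and CS was the highest of the 4.

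Protein turnover and protein synthesis were closer between the strains. At the scaling used the 11 proteasome genes all lay below 0, between -0.72 and -0.13, with a median of -0.56, and none reached 2-fold. Rpn2 (ALHF_02801.g1658), a scaffold subunit of the regulatory particle, had 6461 counts in aabys and 9338 in CS, a log2 ratio of -0.62. Within the ALHF pair the proteasome median was 0.48, the opposite sign. The 25 cytosolic ribosomal protein genes had a median of 0.07, which became -0.12 with scaling by column sums, and lay between -0.83 and 0.38, none of them 2-fold apart.

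RpL7A (ALHF_00329.g166), with 76060 counts in aabys and 68961 in CS, was the second most abundant annotated gene of CS per length, at 6179 FPKM in aabys and 6793 in CS. The highest ribosomal ratio was that of the stalk protein RpLP0 (ALHF_01429.g784), with 50552 counts in aabys and 36364 in CS, and the lowest that of RpL7-like (ALHF_01797.g1008), with 803 in aabys and 1343 in CS. The translation elongation factor Ef1alpha48D (ALHF_01761.g987) was the most abundant annotated gene of both strains, with 345832 counts in aabys and 243163 in CS, 16469 FPKM in aabys and 14041 in CS, a log2 ratio of 0.42.

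The chaperones divided by family. Of 8 small heat shock proteins, 4 were at least 2-fold higher in aabys, with a median of 1.18, against -1.09 within the ALHF pair. The gene closest to CG7409 (ALHF_01372.g749) had 1300 counts in aabys and 102 in CS, with 699 in ALHF and 992 in ALHF2, a log2 ratio of 3.58 [3.29 to 3.88]. The most abundant, closest to CG4461 (ALHF_02483.g1444), had 3367 counts in aabys and 781 in CS, a log2 ratio of 2.02. Hsp27 (ALHF_01116.g617), with 1850 counts in aabys and 1658 in CS, was at 0.07, and the contig closest to CG14207-PA (ALHF_02697.g1575), with 1530 in aabys and 1435 in CS, had the lowest ratio, 0.00.

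The ATP-driven chaperones had a median of -0.03, the sign of which changed with the scaling. Hsp83, the Hsp90 of flies (ALHF_02986.g1799), had 47007 counts in aabys and 72512 in CS, with 9496 in ALHF and 5138 in ALHF2, a log2 ratio of -0.72 [-0.73 to -0.70]. The heat-inducible Hsp70Bbb (ALHF_01854.g1043) had 57 counts in aabys and 193 in CS, a log2 ratio of -1.85 [-2.30 to -1.42], the only member 2-fold apart. The highest was Hsc70-2 (ALHF_02010.g1139), with 298 counts in aabys and 215 in CS, at 0.38.

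The list called sugar and acyl-CoA use held 14 genes, all annotated as AMP-binding enzymes, acyl-CoA oxidases, acyl-CoA dehydrogenases or choline/carnitine acyltransferases. Its median was 0.28, and a 2-fold excess was reached by 5 members in aabys and by none in CS. The highest was ebony (e, ALHF_02367.g1375), an AMP-binding enzyme that in Drosophila makes beta-alanyl amines for cuticle colour and neurotransmitter recycling rather than using fatty acids, with 1123 counts in aabys and 176 in CS, and 807 in ALHF and 153 in ALHF2, a log2 ratio of 2.58 [2.35 to 2.82]. Within the ALHF pair its log2 ratio was 1.63. The lowest, at -0.80, was the carnitine acyltransferase closest to CG12428 (ALHF_01410.g772), with 891 counts in aabys and 1454 in CS, and the most abundant, closest to CG3902 (ALHF_02197.g1263), had 5766 in aabys and 3676 in CS, at 0.56.

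The annotation also sorts these genes into broader structural classes. Over all 1673 measured genes of that annotation, 22.7% were at least 2-fold higher in aabys and 9.98% in CS, and the class counts are to be read against these shares. Among 20 classes with 20 or more members, secondary metabolism had the highest median, 0.95, with 11 of 26 measured genes at least 2-fold higher in aabys and 2 in CS. Ion metabolism and transport followed with 0.75, 19 of 48 in aabys and 1 in CS, and proteases with 0.60, 35 of 83 in aabys and 6 in CS. At the other end, RNA binding had a median of -0.72, with 1 of 35 genes at least 2-fold higher in aabys and 10 in CS, and DNA replication and repair -0.65, with 4 of 42 in aabys and 13 in CS. Translation had a median of -0.28, with none of 27 higher in aabys and 1 in CS. These classes overlap the lists above.

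Examples from the classes were taken from the most abundant members and the ends of the ranges. The antigen 5-related secreted protein Ag5r2 (ALHF_00904.g501) had 25320 counts in aabys and 4022 in CS, but 141 in ALHF and 139 in ALHF2, a log2 ratio of 2.56. A nuclease closest to CG14120 (ALHF_00518.g286) had 33015 counts in aabys and 4604 in CS, with 1230 in ALHF and 1906 in ALHF2, a log2 ratio of 2.75, and although the annotation files it under DNA replication and repair, its domain is that of a non-specific endonuclease. Among genes higher in CS, the poly(ADP-ribose) polymerase Parp (ALHF_00830.g456), which marks damaged DNA, had 2052 counts in aabys and 5953 in CS, with 381 in ALHF and 386 in ALHF2, a log2 ratio of -1.63. The chromatin protein HmgD (ALHF_00266.g127), abundant in early embryos of Drosophila, had 3256 counts in aabys and 7601 in CS, with 44 in ALHF and 87 in ALHF2, a log2 ratio of -1.32. The double-stranded RNA binding protein loquacious (loqs, ALHF_00480.g260), a partner of Dicer, had 113 counts in aabys and 324 in CS, a log2 ratio of -1.61.

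The ratio depended on abundance. In the decile of genes with the lowest mean, 10 to 103 scaled counts, the median log2 ratio was 1.02 and 50.7% of genes were at least 2-fold higher in aabys. The median fell to -0.35 in the sixth decile and was 0.07 in the highest decile. The share at least 2-fold higher in CS stayed between 7.86% and 13.2% in all deciles. The distribution was lopsided: its fullest bin, from -0.5 to -0.25, held 652 genes, and 225 genes lay between 1.5 and 1.75. In the ALHF pair the fullest bin, from 0 to 0.25, held 898 genes, and 82 lay between 1.5 and 1.75. Coding length had little relation to the ratio, with a Spearman rho of -0.02 across genes, which are not independent replicates.

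**Figure D3:**
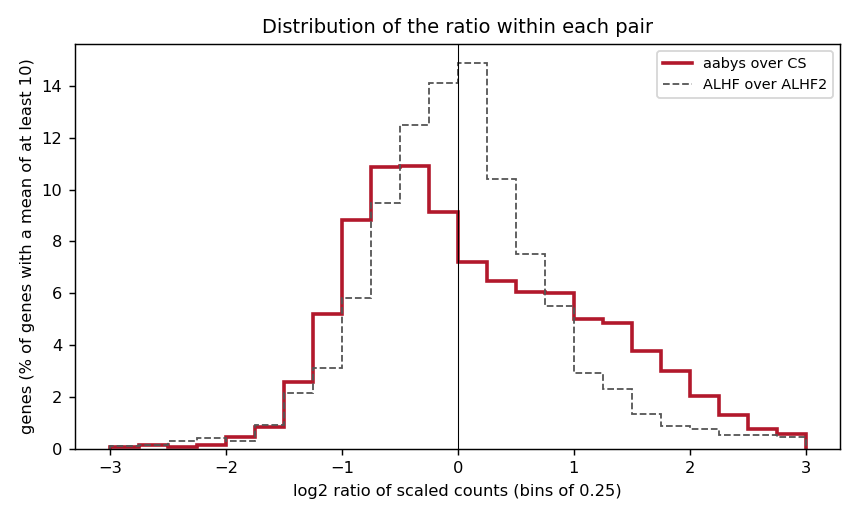
Distribution of the log2 ratio of scaled counts in bins of 0.25, as the percentage of genes with a mean count of at least 10, for aabys over CS (solid) and ALHF over ALHF2 (dashed); ratios beyond 3 in either direction are not drawn. The aabys over CS curve peaks between -0.5 and -0.25 with 10.9% of genes and has a long shoulder above 0, while the ALHF pair peaks between 0 and 0.25 with 14.9%.

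**Figure D4:**
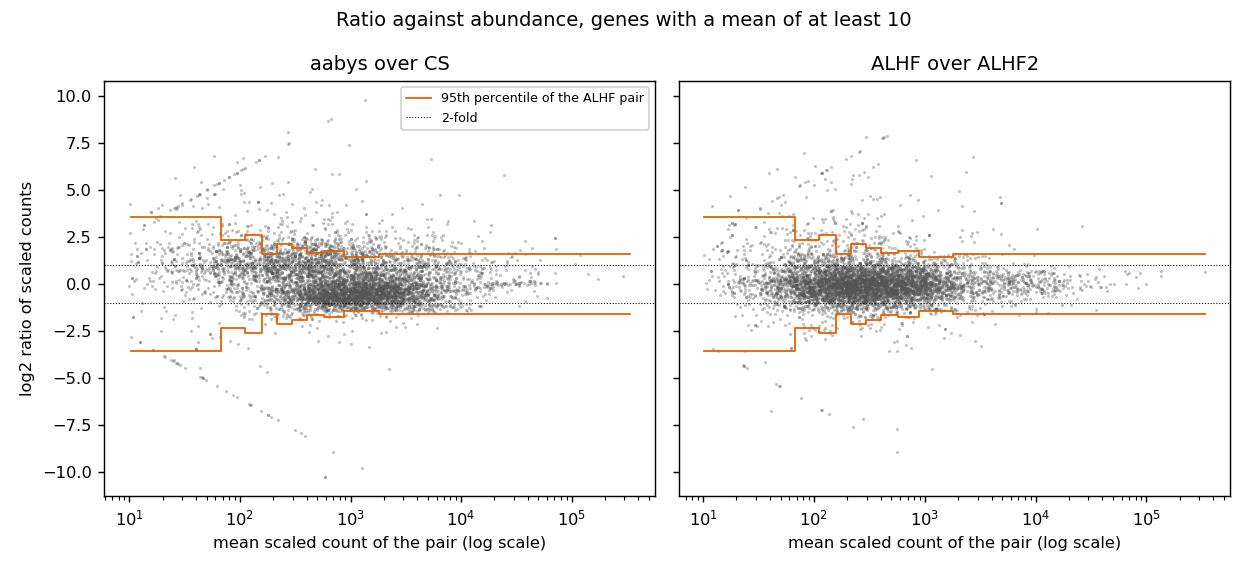
Log2 ratio of scaled counts against the mean scaled count on a log axis, for aabys over CS (left) and ALHF over ALHF2 (right), one point per gene; orange steps mark the 95th percentile of the absolute ratio of the ALHF pair in each decile of abundance and dotted lines mark 2-fold. Beyond the orange steps on the left lie 552 genes above and 102 below, and the straight diagonal rows of points are genes at 0 in 1 library of the pair, set to 3 counts.

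**Figure D5:**
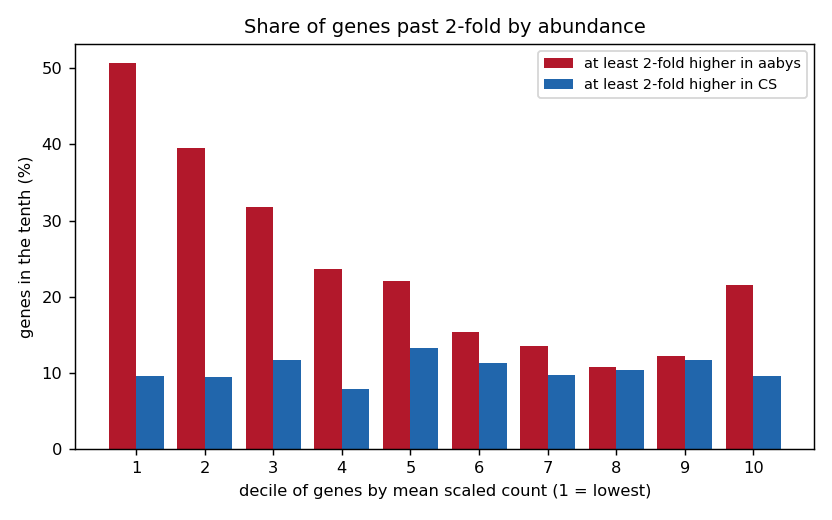
Percentage of genes at least 2-fold higher in aabys (red, left bar) or in CS (blue, right bar) in each decile of genes by mean scaled count. The aabys share is 50.7% in the lowest decile and 10.7% in the eighth, while the CS share stays between 7.86% and 13.2%.

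The ratios of the strain pair were weakly related to those of the ALHF pair. Over the 5952 genes measured in both pairs, which share no library, the log2 ratio of aabys over CS and that of ALHF over ALHF2 had a Pearson r of 0.30 and a Spearman rho of 0.32 across genes. Of all these genes, 11.2% had a 2-fold excess in ALHF and 7.81% in ALHF2. Of 1436 genes at least 2-fold higher in aabys, 369, or 25.7%, had a 2-fold excess in ALHF over ALHF2 as well, and 86, or 5.99%, were 2-fold higher in ALHF2. Of 616 genes at least 2-fold higher in CS, 35, or 5.68%, were 2-fold higher in ALHF and 79, or 12.8%, in ALHF2. Some of the lists divide on this point. Cuticle, peritrophin and takeout genes had large medians in both pairs. Muscle, trypsin, P450, thioester protein and photoreceptor genes had strain medians of 1.07 to 2.03 and ALHF medians between 0.00 and 0.31. Those small ALHF medians hid differences both ways in some lists. Of 16 P450s, 3 were 2-fold higher in ALHF and 4 in ALHF2, and of 16 trypsins 3 in ALHF and 3 in ALHF2. No muscle or photoreceptor gene differed 2-fold within the ALHF pair. In the sugar and acyl-CoA list the ALHF median, 0.93, exceeded the strain median of 0.28. The same held for the glutathione S-transferases, at 1.29 against 0.86, and the carboxylesterases, at 0.88 against 0.02. DNA replication genes lay below 0 in both pairs, with a strain median of -1.37 and an ALHF median of -0.84, and 3 of 7 were 2-fold higher in ALHF2. Small heat shock proteins had medians of opposite sign, 1.18 between the strains and -1.09 within the ALHF pair.

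Some single genes at the extremes were contigs with a like-annotated neighbour, among which reads can be divided. Of genes with a mean of at least 100 and an annotation, the highest ratio was that of a glycerol-3-phosphate dehydrogenase contig (ALHF_04089.g2643), with 2799 counts in aabys and 0 in CS, and 9723 in ALHF and 1895 in ALHF2. Against the 3 counts that a 0 allows in a library, it was at least 875-fold higher in aabys, a log2 ratio of 9.77. Here and below, "at least" before a fold opposite a 0 refers to this floor alone. The exact 95% interval, which also covers the other count, starts lower, for this contig at 9.47. A contig with gelsolin repeats (ALHF_03264.g2007), a domain of actin-severing proteins, had 560 counts in aabys and 0 in CS, at least 175-fold higher, and a protein kinase contig (ALHF_11684.g6556) had 289 in aabys and 0 in CS, at least 90.4-fold higher.

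Among the same annotated genes, the lowest ratios were those of a pair of protein kinase contigs. ALHF_04187.g2728 had 0 counts in aabys and 2441 in CS, at least 868-fold lower in aabys. ALHF_06710.g4412 had 0 in aabys and 1356 in CS, at least 482-fold lower. The counts of this pair in ALHF, 2589 and 2437, and in ALHF2, 1741 and 1628, were close to each other. The esterase kraken (ALHF_02995.g1806) had 0 counts in aabys and 614 in CS, with 146 in ALHF and 45 in ALHF2, at least 218-fold lower. In all, 52 genes were at 0 in aabys alone and 52 at 0 in CS alone, and of these 17 had at least 100 counts in CS and 22 at least 100 in aabys.

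Summing neighbouring contigs with the same annotation reduced the ratio of each named gene that had such a neighbour. An SH3-domain contig (ALHF_11705.g6568) had 563 counts in aabys and 2 in CS, a log2 ratio of 8.04 [6.18 to 11.09], whereas the next contig (ALHF_11706.g6569), of nearly the same length, had 114 in aabys and 882 in CS, a log2 ratio of -3.04. Their sum was 677 counts in aabys and 884 in CS, a log2 ratio of -0.48. With a shorter SH3-domain contig nearby (ALHF_11708.g6571) added, the sum was 878 in aabys and 889 in CS, at -0.11. A myosin head contig (ALHF_10850.g6040) had 210 counts in aabys and 0 in CS, and with its neighbour the sum was 501 in aabys and 341 in CS, a log2 ratio of 0.46. The CG6043 contig (ALHF_02000.g1130) had 225 counts in aabys and 3 in CS, a log2 ratio of 6.14 [4.57 to 8.42], and with 2 neighbours the sum was 5863 in aabys and 3536 in CS, at 0.64. The vlc contig (ALHF_01423.g778), with 171 counts in aabys and 1365 in CS at -3.09, was at -1.08 with its neighbour. These sums were chosen after the values were seen. The named genes had been taken at the extremes, so adding a less extreme neighbour had to moderate the ratio. The sums therefore cannot show whether reads were divided among the contigs.

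The remaining annotated genes at the high end had no such neighbour. They were a contig closest to CG16884 (ALHF_00432.g227), with 218 counts in aabys and 0 in CS and 301 in ALHF and 0 in ALHF2, a FAM92 protein (ALHF_00565.g322), with 1391 in aabys and 23 in CS at a log2 ratio of 5.83 [5.23 to 6.49], and a protein with a fibrinogen-like domain (closest to CG30281, ALHF_01490.g819), with 893 in aabys and 25 in CS at 5.07 [4.49 to 5.70]. The FAM92 gene also had 810 counts in ALHF and 19 in ALHF2.

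At the low end, a protein kinase (closest to CG17698, ALHF_02459.g1431) had 0 counts in aabys and 298 in CS, at least 106-fold lower, and a calponin homology contig (ALHF_11664.g6545) had 0 in aabys and 424 in CS, at least 151-fold lower. A dual specificity phosphatase contig (ALHF_11825.g6646) had 15 counts in aabys and 282 in CS at -4.33, and a tetratricopeptide repeat protein (closest to CG7457, ALHF_00856.g471) had 270 in aabys and 2592 in CS at -3.36 [-3.54 to -3.17]. A zinc finger contig (ALHF_12319.g6760) had 251 counts in aabys and 1464 in CS, with 50 in ALHF and 160 in ALHF2, at -2.64. A lipase (closest to CG5162, ALHF_02507.g1462) had 550 counts in aabys and 3161 in CS, with 811 in ALHF and 3893 in ALHF2, at -2.62 [-2.75 to -2.48], and here the ALHF samples spanned as wide a range as the strains.

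The rule for the extremes took annotated genes only, and the annotation at hand was partial. Beyond the first 1689 genes it covered only genes in the study's lists of genes up or down in ALHF against both susceptible strains. Unannotated below means without a family or Drosophila name in these sources. At or beyond the same ratios there were 16 further such genes at the high end and 14 at the low end. The lowest of all were ALHF_11746.g6596 and ALHF_11747.g6597, with identical values of 1 count in aabys and 1145 in CS, a log2 ratio of -10.25. Among genes at 0 in CS, the unannotated ALHF_04556.g3036 had 1372 counts in aabys, at least 429-fold higher, ALHF_04667.g3127 had 1280, at least 400-fold higher, though summed with an unannotated neighbour of similar length it stood at 1452 counts in aabys and 82 in CS, a log2 ratio of 4.05, and ALHF_11662.g6544 had 570, at least 178-fold higher. Among genes at 0 in aabys, the unannotated ALHF_10762.g5999 had 745 counts in CS, at least 265-fold lower in aabys, and ALHF_05819.g3957 had 687, at least 244-fold lower.

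The most abundant transcripts were also set side by side. In aabys the 10 genes with the most counts took 10.4% of the library, and in CS 7.61%. After Ef1alpha48D, the next annotated genes of aabys per length were a member of the alpha/beta-hydrolase superfamily (ALHF_04154.g2697), with 183408 counts in aabys and 58816 in CS, but 5772 in ALHF and 2718 in ALHF2, a log2 ratio of 1.55, then alphaTry, the LysP lysozyme and another alpha/beta-hydrolase (ALHF_04779.g3223), with 149852 in aabys and 66355 in CS, but 631 in ALHF and 1676 in ALHF2, a log2 ratio of 1.08. Both hydrolases were far above the ALHF samples in aabys and CS. In CS the ribosomal proteins RpL7A, RpL10 and RpL27A were among the 5 most abundant annotated genes per length, each with a log2 ratio between 0.04 and 0.08.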

How the data were processed

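Per the study's methods, poly-A RNA of pooled whole females was sequenced in 50-base pairs, trimmed with Trimmomatic and mapped with RSEM to coding regions that Augustus predicted on a Trinity and CAP3 assembly of ALHF reads, without a genome. No source used here gives the RSEM version. The deposited values are estimated counts rounded to whole numbers: the header calls them FPKM, but their sums over genes exceed what FPKM allows, and they were used as counts. Reads of aabys and CS that differ from the ALHF sequence could map less well, and near-identical contigs can divide reads. A further 476 genes shared all 4 values with another gene.

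Counts of the aabys and CS columns were divided by median-of-ratios factors over genes above 0 in both, as were those of the ALHF pair. Ratios used no pseudocount, and a 0 was set to 3 counts. Genes with a mean scaled count of 10 or more were described, and 185 genes were not. Intervals were exact binomial (scipy 1.17.1), at 95%. PCR reads without molecular identifiers are not independent, so intervals and the floor of 3 cover counting error only. With 1 library per strain no test was made. To compare levels between genes, FPKM were computed from the deposited counts, the coding length and the library total.

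The 22 function lists were drawn from the study's annotation of the first 1689 genes of the table, whose lengths all matched. Genes beyond these counted as annotated only if the study's lists of genes up or down in ALHF gave them a protein family. Those published lists compare ALHF with both aabys and CS, so these annotated genes were partly preselected on the same libraries. The named genes were the 12 highest and 12 lowest annotated ratios at a mean of 100 or more, the 5 highest counts opposite a 0, the 5 most abundant annotated genes of each strain's library, and in each list the highest, lowest and most abundant member. A gene that this rule takes is not reported here. Others, from the structural classes and list members beyond these, were chosen with their values seen. The members and lists were chosen with earlier results of these data known. The procedure was tested on simulated counts. Alternatives were TMM factors (edgeR 4.0.16, R 4.3.3), column sums, 4-library factors, other filters, a pseudocount of 1 and merged identical genes, and, chosen after seeing the data, factors from genes with a mean of at least 1000.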

Additional observations from a re-analysis of the deposited data

How the results depend on the processing

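The counts of genes past 2-fold, 4-fold and the ALHF limit stayed within 1.5 times the values given under TMM factors, 4-library factors, no filter, a pseudocount of 1 and merged identical genes. Scaling by column sums shifted all log2 ratios by -0.19 and gave 977 genes at least 2-fold higher in CS, against 623. Scaling on genes with a mean of at least 1000, chosen after seeing the data, shifted them by 0.18 and gave 379. A mean of at least 100 left 40 genes at least 4-fold higher in CS, against 79, fewer genes being described. The scalings moved all ratios alike, by too little to turn the sign of a ratio of 2-fold or more, while small ratios such as those of RpL7A and Hsp27 and the medians of the ribosomal, Hsp70 and Hsp90, and carboxylesterase lists changed sign. Low counts limit the cuticle and peritrophin genes, several of which had 6 counts or fewer in CS. Several of both lists also lay in the lowest abundance decile, where 50.7% of all genes were at least 2-fold higher in aabys. No paired analysis was possible because each strain had 1 library, and for the same reason no replicate could be left out.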
